A study of Mus musculus with 6 samples.

Results

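The GIMAP genes (GTPases of immunity-associated proteins) were followed through 3 pools of mouse CD4+ T cells. The deposited table held 8 rows whose symbol starts with Gimap, out of 38216 gene symbols: Gimap1, Gimap3, Gimap4, Gimap5, Gimap6, Gimap7, Gimap8 and Gimap9. All 8 were members, chosen by name and not by their values, and all 8 passed the filter on low values that left 13311 genes for testing. Every cell came from the spleen of C57BL/6 mice carrying the IL21-VFP reporter, in which transcription of the cytokine gene Il21 makes a cell fluoresce, on postnatal day 28. The pool called N lacked both VFP and ICOS, a costimulatory receptor raised on activated T cells. The pool called ACT had surface ICOS without VFP, and the pool called ACT_IL21 had both. Each pool was sequenced as 2 libraries. Levels are TPM, transcript abundances corrected for length and scaled to a fixed total, so levels of different genes within a library can be set side by side. The number of reads behind a value is unknown. How many mice gave cells to a library is not given in the sources used here.

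GIMAP proteins are GTP-binding proteins of the AIG1 type, found mainly in lymphocytes, where the genes sit side by side in 1 cluster. They act on the survival and numbers of mature lymphocytes. Some members sit in intracellular membranes through a hydrophobic C-terminal segment, others are soluble, and several pair with one another through their GTP-binding domains. Loss of Gimap5 empties the peripheral T cell compartment of the BB rat and of mutant mice, and loss of Gimap1 depletes mature T and B cells.

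On chromosome 6 of GRCm38, the build named by the submitters, the 8 protein-coding genes lay within 124 kb, at chr6:48647234-48770851. In that order they were Gimap8, Gimap9, Gimap4, Gimap6, Gimap7, Gimap1, Gimap5 and Gimap3. Gimap6 and Gimap3 lay on the minus strand and the other 6 on the plus strand. The GENCODE annotation also places 5 genes inside the cluster that had no row in the table. One is an antisense gene over Gimap1, and another is a readthrough gene that overlaps Gimap7, Gimap1 and Gimap5. The strand setting of the authors' counting is not given in the sources used here, so reads from these overlapping genes cannot be told apart from those of the members.

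The start-site regions are shown for the members on which the pool differences turn: Gimap7 and Gimap4, which passed the test in ACT against N, Gimap1, which like Gimap5 had the same order of pools without passing it, and their neighbour Gimap6, which was nearly level between N and ACT. Each run holds the 250 bases before the RefSeq transcription start on GRCm38.p6, on the strand of the gene. The stretches are chr6:48718371-48718620 on the plus strand for Gimap7, chr6:48684328-48684577 on the plus strand for Gimap4, chr6:48738797-48739046 on the plus strand for Gimap1, and chr6:48708245-48708494 on the minus strand for Gimap6. Capitals mark matches, on either strand, to short motifs bound by lymphocyte transcription factors.
Gimap7: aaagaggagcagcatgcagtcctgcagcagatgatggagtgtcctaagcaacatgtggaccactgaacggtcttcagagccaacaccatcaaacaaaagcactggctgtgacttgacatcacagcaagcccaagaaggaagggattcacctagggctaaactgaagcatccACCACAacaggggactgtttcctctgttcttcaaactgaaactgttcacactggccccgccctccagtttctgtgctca
Gimap4: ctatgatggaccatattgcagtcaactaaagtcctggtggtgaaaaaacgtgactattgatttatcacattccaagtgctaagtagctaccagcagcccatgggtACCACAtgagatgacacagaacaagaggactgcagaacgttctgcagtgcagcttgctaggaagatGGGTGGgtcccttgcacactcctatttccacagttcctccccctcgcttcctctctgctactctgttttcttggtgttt
Gimap1: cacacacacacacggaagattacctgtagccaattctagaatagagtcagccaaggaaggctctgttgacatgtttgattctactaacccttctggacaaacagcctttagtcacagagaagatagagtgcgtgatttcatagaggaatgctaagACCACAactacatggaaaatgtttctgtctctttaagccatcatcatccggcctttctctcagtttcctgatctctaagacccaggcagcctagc
Gimap6: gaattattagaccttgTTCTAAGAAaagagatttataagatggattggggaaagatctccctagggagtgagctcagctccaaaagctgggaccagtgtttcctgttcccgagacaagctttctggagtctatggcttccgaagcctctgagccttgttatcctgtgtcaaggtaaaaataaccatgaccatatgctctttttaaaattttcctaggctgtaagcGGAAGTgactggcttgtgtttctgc
The RUNX motif TGTGGT, read here as ACCACA, was found in 3 of the 9 start-site windows of the 8 genes, those of Gimap7, Gimap4 and Gimap1, and in 16.8% of all 32851 RefSeq windows of 300 bases. It began 79 bases before the start of Gimap7, 145 before that of Gimap4 and 95 before that of Gimap1. Gimap5, whose region is not printed, had no RUNX match. It had the same order of pools, with a log2 fold change of 0.56 in ACT against N, where Gimap1 had 0.49. The ETS core GGAAGT was found in 4 windows, those of Gimap1, Gimap5, Gimap6 and Gimap9, against 23.8% of all windows. The KLF motif CCACCC was found in 5, those of Gimap3, Gimap4, Gimap5, Gimap8 and Gimap9, against 31.5%. The STAT motif TTCNNNGAA was found in 4, those of Gimap3, Gimap6, Gimap7 and Gimap8, against 8.3%. The TCF/LEF motif CTTTGA was found in 2, those of Gimap4 and Gimap7, against 16%, and the FOXO motif GTAAACA in that of Gimap3, against 3.65%. The TCF/LEF and STAT matches of Gimap7 overlap each other and, like the TCF/LEF match of Gimap4 and the ETS match of Gimap1, lie after the start site, outside the printed run. The motifs were chosen with the expression values known, and a match is a description of letters and no evidence of binding.

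Gimap3 and Gimap5 are close copies, and their sequences bear on how far their values can be trusted. Their coding sequences were 92.3% identical, while every other pair among the members without Gimap8, which is much longer, was between 66.9% and 73.7% identical. The longest run without a difference between them was 140 bases. It is shown with 30 bases on each side, from coding base 145 to 344 of Gimap3 and from 157 to 356 of Gimap5, with capitals at the 4 bases that differ.
Gimap3: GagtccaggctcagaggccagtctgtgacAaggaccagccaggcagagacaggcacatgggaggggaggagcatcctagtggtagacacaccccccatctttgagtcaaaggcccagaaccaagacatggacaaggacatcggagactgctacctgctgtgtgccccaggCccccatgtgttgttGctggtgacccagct
Gimap5: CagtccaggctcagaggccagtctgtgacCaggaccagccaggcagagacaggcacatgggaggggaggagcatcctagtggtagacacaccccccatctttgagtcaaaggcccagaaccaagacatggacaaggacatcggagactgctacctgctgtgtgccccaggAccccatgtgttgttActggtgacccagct
Of all runs of 25 bases in their annotated transcripts, 15.6% of those of Gimap3 and 20.6% of those of Gimap5 also occur in the other gene, and no other pair of members shared any. RSEM, the counting tool named by the submitters, divides reads that match several genes by estimation. The values of Gimap3 and Gimap5 are uncertain to that extent.

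The sort markers followed the labels. Icos was between 31.92 and 35.67 TPM in N, between 241.35 and 254.1 in ACT and between 184.97 and 226.73 in ACT_IL21. Il21 reached 44.48 and 51.87 TPM in ACT_IL21, was listed at 0 in N, and was listed at 0 in one ACT library and at 1.26 TPM in the other. All 12 CD4 T cell markers listed were at 1 TPM or more in every library, and their summed level was between 6031 and 8992 TPM. The sum hides differences between markers. Cd4 was at 357.93 and 315.56 TPM in N, 267.6 and 236.07 in ACT and 533.54 and 566.54 in ACT_IL21. Cd247 too was lowest in ACT, averaging 240, 142 and 272 TPM in the same order, while Cd3e averaged 1483, 1847 and 2043. Natural killer, NKT and regulatory T cell markers were highest in ACT as sums, though not each marker by itself. Of the regulatory markers, Nrp1 averaged 39.6 TPM in ACT against 47.2 in ACT_IL21, and Ctla4 251 against 253. Prf1, a natural killer and NKT marker, averaged 7.6 TPM in N against 3.34 in ACT. From ACT to ACT_IL21, 5 of 9 natural killer and NKT markers tested and 3 of 7 regulatory markers were called lower by limma, and 0 higher. The 10 natural killer and NKT cell markers summed to 52.2 to 61.2 TPM in N, 518 to 547 in ACT and 54 to 63 in ACT_IL21, and the 7 regulatory T cell markers to 221 to 239, 802 to 929 and 472 to 495 TPM. Klrb1c, the gene of the NK1.1 antigen, was at 2.56 and 2.38 TPM in N, 166.08 and 177.29 in ACT and 25.49 and 25.7 in ACT_IL21, while Ncr1, the defining receptor gene of natural killer cells, did not exceed 1.06 TPM in any library. Foxp3, the lineage gene of regulatory T cells, was at 22.19 and 19.38, 65.43 and 51.87, and 1.57 and 2.69 TPM in the same order. The 2 CD8 T cell markers summed to 19 to 27 TPM in N, 5.59 to 7.41 in ACT and 3.41 to 9.88 in ACT_IL21. Summed B cell markers were between 14.4 and 19.9 TPM in ACT_IL21 and did not exceed 5.78 TPM in the other pools. Most of the ACT_IL21 sum was Cd22, at 0 and 0.07 TPM in N, 1.62 and 3.68 in ACT and 13.09 and 17.45 in ACT_IL21. Pax5 and Blk were listed at 0 in every library, and summed myeloid and dendritic cell markers did not exceed 73.3 TPM. Of the markers of endothelial cells, which also express some GIMAP genes, Tek and Emcn were listed at 0 in every library. Vwf was between 5.73 and 11.41 TPM, and Pecam1, which T cells express too, was between 58.3 and 127.01 TPM. Whether endothelial RNA had a part in the GIMAP values was not tested.

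The GIMAP genes were expressed in all 6 libraries, and as a group they were most abundant in ACT. Their summed level was 3396 and 3840 TPM in N, 5139 and 5350 in ACT, and 3906 and 3736 in ACT_IL21. Both ACT libraries were above all 4 others, and the N and ACT_IL21 libraries overlapped. The sum made up between 0.34% and 0.535% of a library. Without Gimap4 the sums were 1882 and 2039 TPM in N, 2344 and 2251 in ACT, and 1723 and 1750 in ACT_IL21, so that ACT was still above N and N was now above ACT_IL21. In bulk libraries such as these, fewer cells of a type and less RNA per cell cannot be told apart. The GIMAP sums, like the summed natural killer, NKT and regulatory markers above, were highest in ACT. The part of those cells in the GIMAP sums was not tested.

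**Figure D1:**
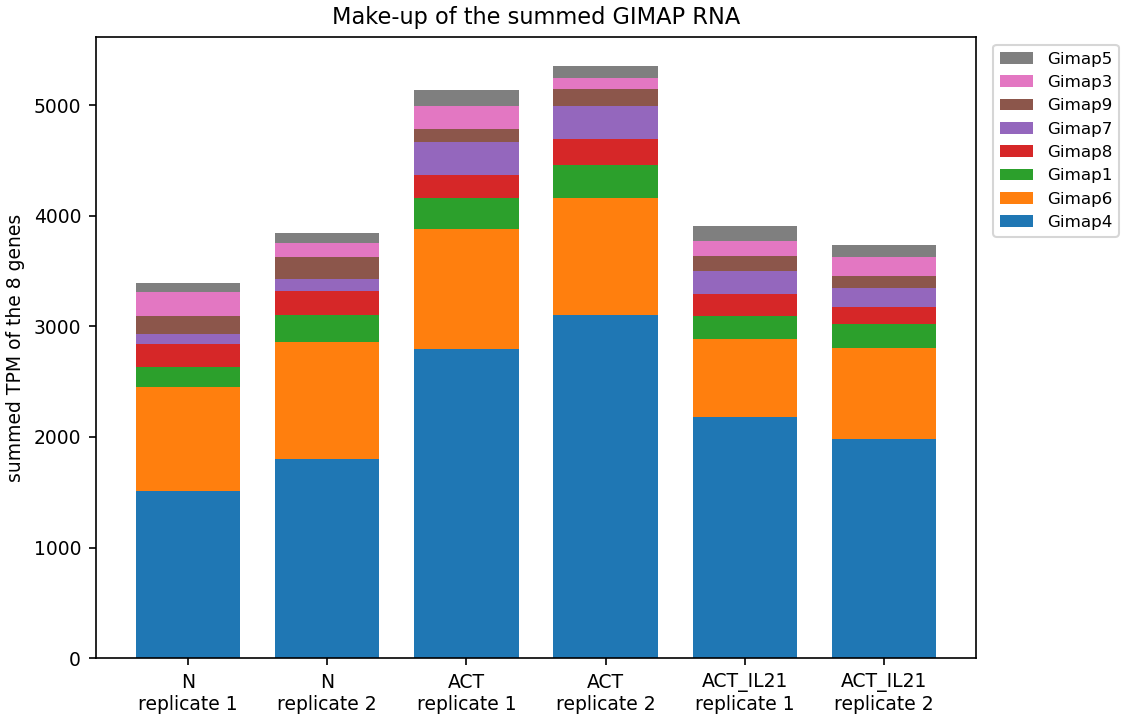
Summed TPM of the 8 GIMAP genes in each of the 6 libraries, stacked by gene, with the most abundant gene, Gimap4, at the bottom. The ACT bars reach 5139 and 5350 TPM and the others stay between 3396 and 3906, and Gimap4 is the widest band in every bar.

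The members differed widely in level. Gimap4 was the most abundant in every library and ranked between 21 and 85 among all genes of a library. Gimap6 came next, ranking between 104 and 171. The other 6 genes lay lower, between 82.43 and 304.85 TPM, and the lowest rank, 1692, was that of Gimap5. Gimap4 made up on average 45.8% of the summed GIMAP level in N, 56.1% in ACT and 54.5% in ACT_IL21, and Gimap6 27.6%, 20.4% and 19.9%. Gimap7 went from 2.88% in N to 5.72% in ACT and 4.96% in ACT_IL21, and Gimap9 from 4.94% to 2.62% and 3.21%.

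ACT was first set against N, that is, cells with ICOS but no VFP against cells with neither. Gimap7 and Gimap4 were higher in ACT, by 2.87-fold and 1.78-fold on the log2(TPM + 1) scale, and no GIMAP gene was called lower. Of the 8 members, 2 were called higher and 0 lower by limma at an adjusted p under 0.05. Over all genes tested, 4.15% were called higher and 1.43% lower. At an unadjusted p under 0.05 the members counted 4 higher and 0 lower, against 11.6% and 6.99% of all genes. The libraries of the pools did not overlap for 5 members, 4 of them higher in ACT (Gimap1, Gimap4, Gimap5 and Gimap7) and 1 lower (Gimap9), against 25.2% and 21.9% of all genes. The median log2 fold change was 0.30 over the members and 0.02 over all genes tested. The N libraries of this comparison also serve as the reference for ACT_IL21.

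ACT_IL21 and N differ by both sort markers. Gimap7 was higher in ACT_IL21 by 1.81-fold, and it was the member called, with 0 lower. Of all genes, 3.82% were called higher and 1.26% lower. At an unadjusted p under 0.05 the members counted 2 higher (Gimap5 and Gimap7) and 2 lower (Gimap6 and Gimap9), against 12.9% and 5.75% of all genes. The libraries did not overlap for 3 members that were higher (Gimap4, Gimap5 and Gimap7) and 3 that were lower (Gimap6, Gimap8 and Gimap9), against 31.5% and 19.9% of all genes. The median was -0.06 over the members and 0.10 over all genes.

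The comparison of ACT_IL21 with ACT sets ICOS+ cells with the reporter against those without it. By limma 0 members were called higher and 0 lower, where 0.796% and 1.15% of all genes were called. At an unadjusted p under 0.05, 0 members were higher and 4 lower (Gimap1, Gimap4, Gimap6 and Gimap7), against 8.49% and 6.37% of all genes. The libraries did not overlap for 5 members, all lower in ACT_IL21 (the same 4 and Gimap8), and for 0 members that were higher, against 17.3% and 24.5% of all genes. The log2 fold change was negative for 7 of 8 members, all but Gimap3, and its median was -0.40 over the members and 0.08 over all genes.

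**Figure D2:**
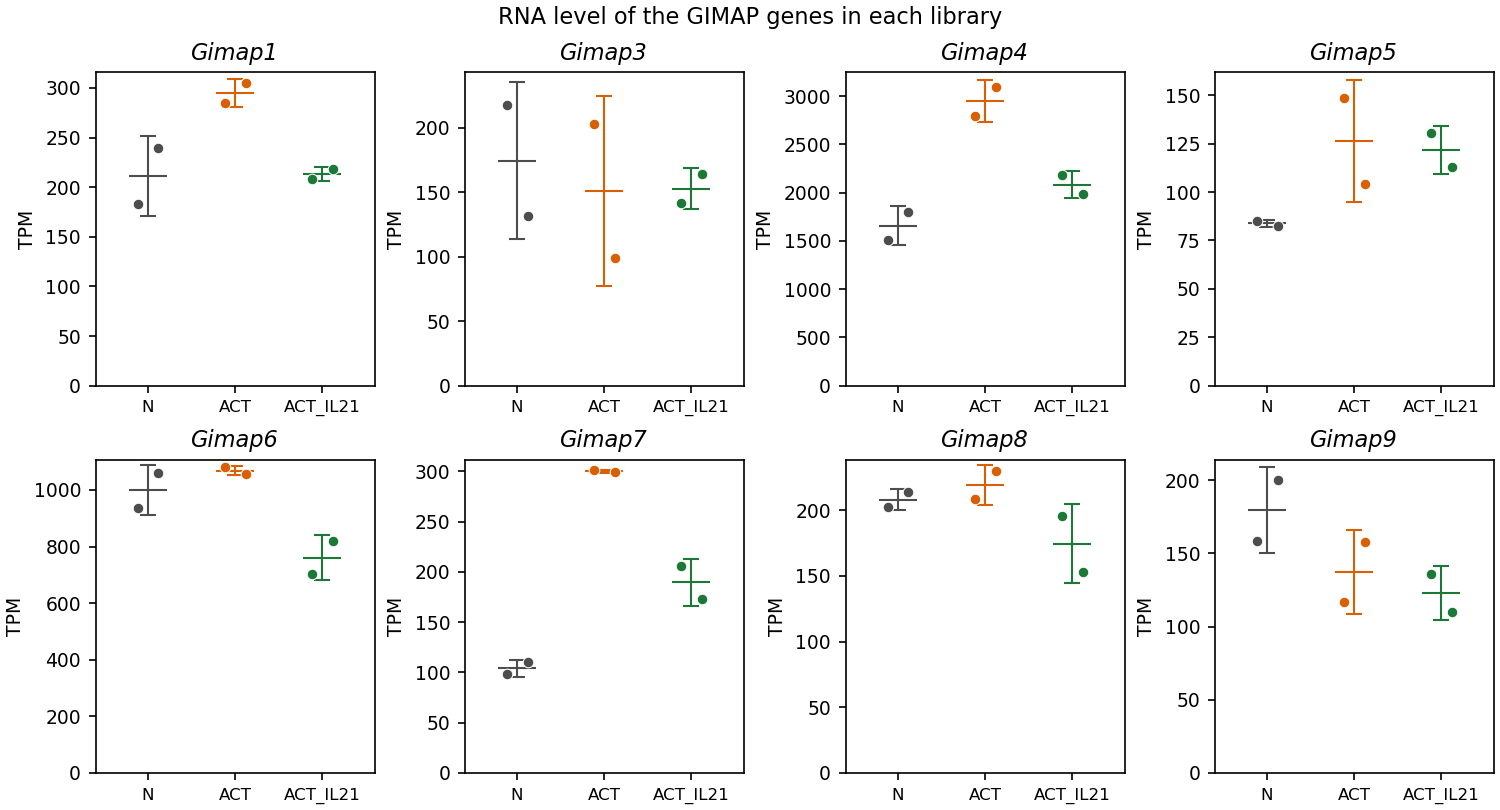
TPM of each GIMAP gene in the 2 libraries of N, ACT and ACT_IL21 (points), with the mean (long bar) and SD (whiskers), each panel starting at 0. Gimap7 shows 3 separate steps, Gimap4 and Gimap1 peak in ACT, and the Gimap3 points of N and of ACT lie far apart within their pools.

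Among the soluble members, Gimap7 changed most. Its protein is known to pair with another GIMAP and to stimulate hydrolysis of the bound GTP. Gimap7 (chr6:48718621-48724636) was at 97.99 and 110.1 TPM in N, 301.18 and 299.09 in ACT and 206.44 and 173.28 in ACT_IL21. The 3 pools did not overlap, with N lowest and ACT highest. The means were 104 ± 8.56, 300 ± 1.48 and 190 ± 23.4 TPM (SD, n = 2). In ACT against N the log2 fold change was 1.52 (SE 0.15, 95% interval 1.17 to 1.87, adjusted p = 0.00128), and the call held whichever of the 6 libraries was left out. In ACT_IL21 against N it was 0.86 (0.51 to 1.21, adjusted p = 0.0185). That call ended without N replicate 1 (0.86 became 0.78, adjusted p = 0.14), N replicate 2, ACT_IL21 replicate 1 or ACT_IL21 replicate 2 (adjusted p = 0.0857, 0.153 and 0.0769). The step from ACT to ACT_IL21, at -0.66 (-1.01 to -0.31), did not pass (adjusted p = 0.0793).

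Gimap4 (chr6:48684549-48692060), linked to the timing of T cell death and to cytokine release, followed the same order of pools. It was at 1513.83 and 1801.12 TPM in N, 2795.51 and 3099.29 in ACT and 2182.81 and 1985.64 in ACT_IL21. The pools again did not overlap, and the gap from N to ACT_IL21 was smaller than the spread within N. The means were 1657 ± 203, 2947 ± 215 and 2084 ± 139 TPM (SD, n = 2). In ACT against N the log2 fold change was 0.83 (SE 0.16, 0.47 to 1.20, adjusted p = 0.0226). That call ended without N replicate 1 (adjusted p = 0.151), N replicate 2 (0.0572), ACT replicate 2 (0.0674), ACT_IL21 replicate 1 (0.0777) or ACT_IL21 replicate 2 (0.0769), at log2 fold changes of 0.71 to 0.96. Leaving out an ACT_IL21 library kept the log2 fold change of ACT against N at 0.83 but left fewer libraries to estimate the spread. Against N the value in ACT_IL21 was 0.33 (-0.03 to 0.70, adjusted p = 0.316), and against ACT it was -0.50 (-0.87 to -0.13, adjusted p = 0.192).

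Gimap6 (chr6:48701582-48708225), whose protein binds the autophagy protein GABARAPL2, lies between Gimap4 and Gimap7. It was at 937.86 and 1061.74 TPM in N, 1080.65 and 1056.94 in ACT and 704.28 and 818.31 in ACT_IL21. N and ACT overlapped, and both ACT_IL21 libraries were below the other 4. The means were 1000 ± 87.6, 1069 ± 16.8 and 761 ± 80.6 TPM (SD, n = 2). The log2 fold changes were 0.10 in ACT against N (-0.24 to 0.43, adjusted p = 0.789), -0.39 in ACT_IL21 against N (-0.73 to -0.06, adjusted p = 0.195) and -0.49 in ACT_IL21 against ACT (-0.83 to -0.16, adjusted p = 0.16).

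Gimap9 (chr6:48676129-48679114), of which less is known, was the member whose mean was highest in N and lowest in ACT_IL21. It was at 158.53 and 200.19 TPM in N, 116.98 and 157.73 in ACT and 135.7 and 109.98 in ACT_IL21. Both N libraries were above the other 4, by less than 1 TPM at the closest, and ACT and ACT_IL21 overlapped. The means were 179 ± 29.5, 137 ± 28.8 and 123 ± 18.2 TPM (SD, n = 2). The log2 fold changes were -0.39 in ACT against N (-0.87 to 0.09, adjusted p = 0.376), -0.54 in ACT_IL21 against N (-1.02 to -0.06, adjusted p = 0.212) and -0.15 in ACT_IL21 against ACT (adjusted p = 0.785).

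**Figure D3:**
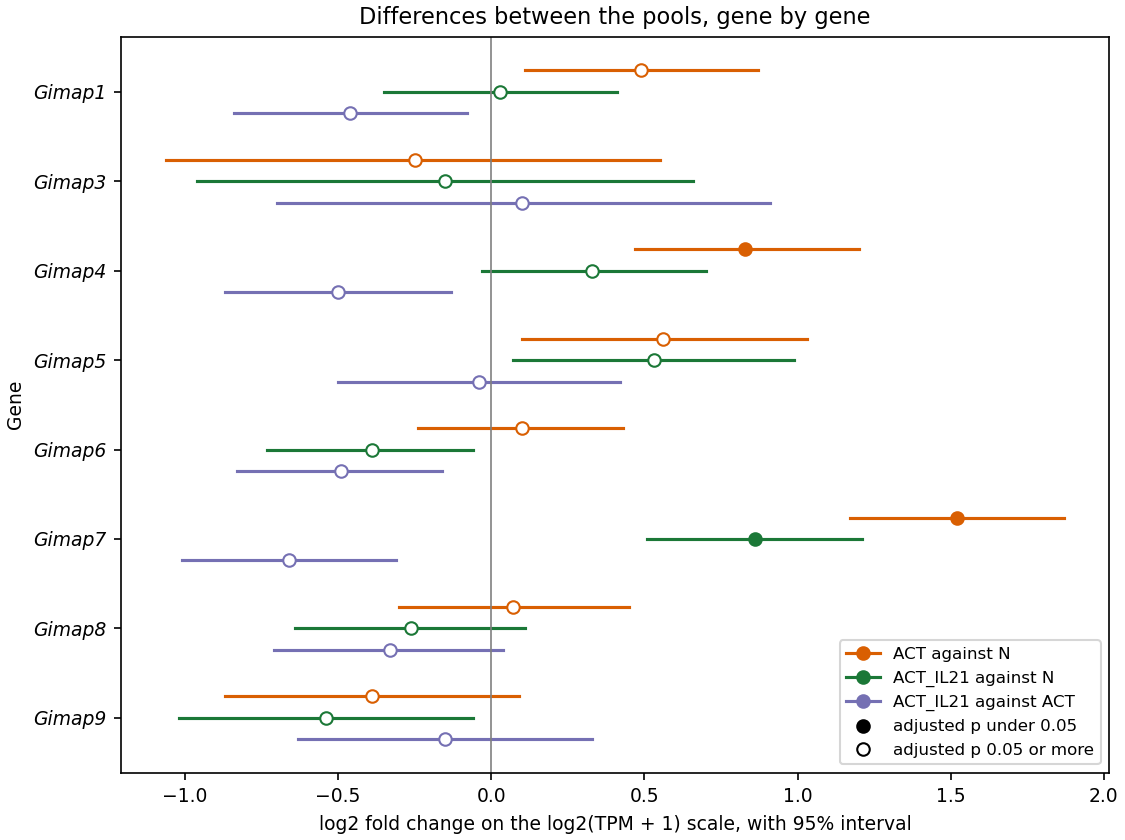
Log2 fold change of each GIMAP gene in the 3 comparisons on the log2(TPM + 1) scale, with 95% intervals from limma; filled points passed an adjusted p of 0.05. The filled points are Gimap7 at 1.52 and 0.86 against N and Gimap4 at 0.83, and the Gimap3 intervals are the widest.

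Of the membrane-anchored members, Gimap1 (chr6:48739054-48743795), which mature lymphocytes need in order to persist, was highest in ACT. It was at 182.66 and 239.71 TPM in N, 285.16 and 304.85 in ACT and 208.72 and 218.49 in ACT_IL21. ACT did not overlap the other pools, and both ACT_IL21 libraries lay between the N libraries. The means were 211 ± 40.3, 295 ± 13.9 and 214 ± 6.91 TPM (SD, n = 2). In ACT against N the log2 fold change was 0.49 (0.11 to 0.87, adjusted p = 0.148), and in ACT_IL21 against ACT it was -0.46 (adjusted p = 0.241). In ACT_IL21 against N it was 0.03 (-0.35 to 0.41, adjusted p = 0.953), with a sign that turned under 3 rescalings of the libraries, at -0.04 to -0.08.

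Gimap5 (chr6:48746197-48754210), the lysosome-linked survival gene of the BB rat, was lowest in N. It was at 85.12 and 82.43 TPM in N, 148.79 and 103.98 in ACT and 130.33 and 112.82 in ACT_IL21. Both N libraries were below the other 4, and ACT and ACT_IL21 overlapped. The means were 83.8 ± 1.9, 126 ± 31.7 and 122 ± 12.4 TPM (SD, n = 2). The log2 fold changes were 0.56 in ACT against N (0.10 to 1.03, adjusted p = 0.172) and 0.53 in ACT_IL21 against N (0.07 to 0.99, adjusted p = 0.205). Without ACT replicate 2 the former was 0.82 and passed (adjusted p = 0.0494). In ACT_IL21 against ACT the value was -0.04 (adjusted p = 0.956).

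Gimap3 (chr6:48764464-48770851), the close copy of Gimap5, could not be ordered across the pools. It was at 217.16 and 131.29 TPM in N, 202.77 and 98.83 in ACT and 141.54 and 163.79 in ACT_IL21. All 3 pools overlapped. The 2 N libraries differed 1.65-fold and the 2 ACT libraries 2.04-fold, where the median over 2990 genes with a mean of 50 to 3000 TPM was 1.14-fold and 1.2-fold. The log2 fold changes were -0.25 in ACT against N (-1.06 to 0.55, adjusted p = 0.776), -0.15 in ACT_IL21 against N (adjusted p = 0.875) and 0.10 in ACT_IL21 against ACT (adjusted p = 0.924). The ratio of Gimap3 to Gimap5 within a library was 2.55 and 1.59 in N, 1.36 and 0.95 in ACT and 1.09 and 1.45 in ACT_IL21. Both N libraries were above the other 4 in this ratio. With both genes summed into 1 row the value was 0.07 in ACT against N and 0.11 in ACT_IL21 against N.

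Gimap8 (chr6:48647234-48660875), the member with several GTP-binding domains and a protein of 688 residues against 291 to 328 for the rest, had its lowest values in ACT_IL21. It was at 202.65 and 213.71 TPM in N, 208.28 and 229.76 in ACT and 195.88 and 153.4 in ACT_IL21. N and ACT overlapped, and both ACT_IL21 libraries were below them. The means were 208 ± 7.82, 219 ± 15.2 and 175 ± 30 TPM (SD, n = 2). The log2 fold changes were 0.07 in ACT against N (-0.30 to 0.45, adjusted p = 0.875), with a sign that turned under quantile normalization (-0.03), -0.26 in ACT_IL21 against N (adjusted p = 0.455) and -0.33 in ACT_IL21 against ACT (adjusted p = 0.395).

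Ratios within a library do not change when all its values are multiplied by a common factor. Quantile normalization is not such a factor and can change them. Gimap7 relative to Gimap8 was 0.484 and 0.515 in N, 1.45 and 1.3 in ACT and 1.05 and 1.13 in ACT_IL21, with no overlap between pools. Gimap4 relative to Gimap6 was 1.61 and 1.7 in N, 2.59 and 2.93 in ACT and 3.1 and 2.43 in ACT_IL21. N was below both other pools in this ratio, which overlapped each other. Gimap7 relative to Gimap9 was 0.618 and 0.55 in N, 2.57 and 1.9 in ACT and 1.52 and 1.58 in ACT_IL21, again with no overlap. These pairs, out of 28 among the members, were chosen with earlier results of these data known, and the ratios were not tested. They describe unequal changes between the genes of those pairs.

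Along the chromosome, most neighbours differed in ACT against N and lay closer in ACT_IL21 against ACT. Gimap6, 0.10 in ACT against N on the log2 scale, stands between Gimap4 at 0.83 and Gimap7 at 1.52, and Gimap9, at -0.39, lies next to Gimap4. In ACT_IL21 against ACT the 4 adjacent genes Gimap4, Gimap6, Gimap7 and Gimap1 had values of -0.50, -0.49, -0.66 and -0.46, none of which passed. Gimap1 and its neighbour Gimap5 went the other way. They were at 0.49 and 0.56 in ACT against N and at -0.46 and -0.04 in ACT_IL21 against ACT. Over the 6 libraries the Pearson correlation of log2(TPM + 1) was 0.97 between Gimap4 and Gimap7, 0.90 between Gimap1 and Gimap4, and -0.79 between Gimap5 and Gimap9. Of the 28 pairs of members 16 were positive and 12 negative. These correlations describe 6 libraries that share pools and a fixed total, and no test is given.

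**Figure D4:**
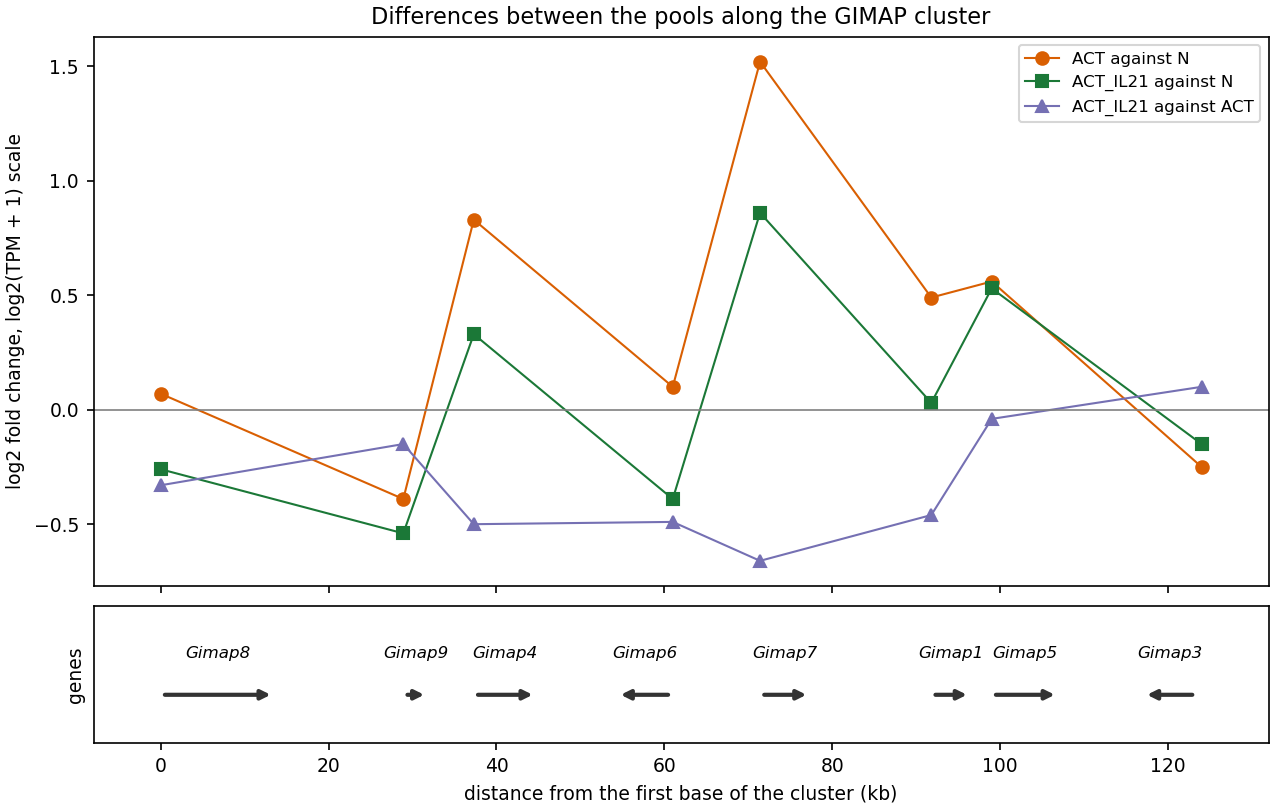
Log2 fold change of each GIMAP gene against the distance of its start site from the first base of the cluster, in kb, with the genes and their strands below as arrows. In ACT against N, Gimap4 (0.83) and Gimap7 (1.52) stand above Gimap6 (0.10), which lies between them; the lines join neighbours and show no measurement between genes.

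Of the 10 protein-coding genes that flank the cluster, 5 on each side, 8 had a row in the table and 5 passed the filter. Tmem176b, which with Tmem176a encodes a pair of related membrane proteins, was at 1.31 and 0 TPM in N, 8.71 and 5.48 in ACT and 3.65 and 2.66 in ACT_IL21. It was called higher in ACT than in N (2.38, adjusted p = 0.0435), a call that ended whichever of the 6 libraries was left out (adjusted p = 0.0636 to 0.298). Tmem176a, at 1.12 and 0.65, 8.69 and 4.42, and 6.96 and 5.7 TPM in the same order, did not pass (1.95, adjusted p = 0.0501 in ACT against N). Both stood far below the GIMAP genes in level. Repin1, Zfp775 and AI854703 were not called in any comparison, and the other 3 genes were listed at 0 in every library.

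The genes whose profile was most like the mean log2 level of the members were, among 5442 genes with a mean of at least 20 TPM, Purb (Pearson r 0.997 over the 6 libraries), Ddit3 (0.995), Rap2c (0.994), Psme2 (0.990) and Cd160 (0.985). Rap2c, itself a small GTPase gene of the Ras family, averaged 211 ± 8.02 TPM (SD, n = 2) in N, against 323 ± 11.5 in ACT and 220 ± 17.6 in ACT_IL21. Cd160, which encodes a receptor of natural killer and T cells, was at 8.78 ± 0.163, 105 ± 46.6 and 15.5 ± 4.37 TPM. The likeness is a description of 6 points in 3 pools.

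Genes of the processes in which GIMAP proteins act were counted in the same tests, from lists chosen with results of these data known. Over all genes tested, 4.15% were called higher and 1.43% lower in ACT against N, and 3.82% and 1.26% in ACT_IL21 against N. In ACT_IL21 against ACT the shares were 0.796% and 1.15%, and the medians of the 3 comparisons were 0.02, 0.10 and 0.08. Of 13 BCL2 family genes, whose products control cell death and some of which are reported to bind GIMAP proteins, 2 rose and 1 fell in ACT against N (median 0.58). The anti-apoptotic genes Bcl2a1d and Bcl2a1b, near-identical copies and uncertain as such, rose by 4.82 and 3.30, and Bcl2 fell by 0.95. Bcl2 was at 71.81 and 72.54 TPM in N, 36.77 and 36.97 in ACT and 26.12 and 27.38 in ACT_IL21, in 3 pools that did not overlap. In ACT_IL21 against N 3 rose and 2 fell (median 0.63). Those that rose were Bcl2a1d (4.34), Bcl2a1b (2.66) and Pmaip1 (2.61), which encodes the pro-apoptotic protein NOXA. Those that fell were Bcl2 (-1.40) and Bcl2l11, which averaged 92.9 TPM in N and 51.1 in ACT_IL21. Bcl2l11 was named after its values were seen. No member of the list passed between ACT_IL21 and ACT (median -0.11). The call of Bcl2 ended without N replicate 1, N replicate 2, ACT replicate 1 or ACT replicate 2 in the first comparison (adjusted p up to 0.2) and without N replicate 1, N replicate 2 or ACT_IL21 replicate 1 in the second (adjusted p up to 0.066). That of Pmaip1 ended whichever library of N or ACT_IL21 was left out (adjusted p up to 0.193).

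In the interleukin-7 receptor pathway, which keeps resting T cells alive, 0 of 9 genes passed in ACT against N (median 0.19). Over all genes 4.15% passed as higher and 1.43% as lower in that comparison, with a median of 0.02. Il7r, the receptor gene, was at 416.04 and 426.72 TPM in N, 450.86 and 548.67 in ACT and 170.81 and 204.56 in ACT_IL21. Both ACT_IL21 libraries were far below the other 4. Il7r was the 1 gene called in ACT_IL21, lower than in N (-1.17, adjusted p = 0.00602, median -0.08) and than in ACT (-1.41, adjusted p = 0.00661). The first call ended without N replicate 2 or ACT_IL21 replicate 1 and the second without either ACT_IL21 library (adjusted p up to 0.0787 and 0.0779).

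In the 3 comparisons between 0.796% and 4.15% of all genes passed in a given direction, with medians of 0.02, 0.10 and 0.08. Among 16 autophagy and lysosome genes, 0 passed in any of the 3, with medians of 0.36, 0.23 and 0.09. Map1lc3b, the most abundant and an autophagosome gene, was at 121.44 and 135.34 TPM in N, 146.69 and 180.11 in ACT and 168.48 and 175.9 in ACT_IL21, and its value in ACT against N was 0.34 (adjusted p = 0.311). Gabarapl2, which encodes the partner of the Gimap6 protein, had a value of 0.69 in ACT against N (adjusted p = 0.102).

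Of 10 genes of GSK3, NFAT and beta-catenin signalling, Nfatc1 rose in ACT against N (1.13, adjusted p = 0.00829, 0.0769 without N replicate 2) and in ACT_IL21 against N (1.83, adjusted p = 0.00129). Ppp3ca, which encodes a catalytic subunit of calcineurin, fell in ACT_IL21 against N (-1.36, adjusted p = 0.0269) and against ACT (-1.52, adjusted p = 0.0305). Its call ended whichever library of N or ACT_IL21 was left out in the former and whichever of the 6 was left out in the latter (adjusted p up to 0.231 and 0.174). No other gene of the list passed, and the medians were 0.05, 0.04 and 0.04.

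The naive and quiescent T cell list, 15 genes of resting cells, had 12 genes lower and 0 higher in ACT against N (median -1.67). There 1.43% of all genes were called lower and 4.15% higher. The list had 7 lower in ACT_IL21 against N (median -0.59), where 1.26% of all genes were called lower. In ACT_IL21 against ACT 4 were higher and 0 lower (median 0.26): S1pr1 (1.41), Tcf7 (1.37), Klf2 (1.16) and Foxp1 (0.81), each of which lost its call without ACT_IL21 replicate 2. That was the 1 library that ended the call of S1pr1 (adjusted p = 0.073), and the other 3 genes lost theirs without further libraries too (adjusted p up to 0.282). In that comparison 7 of the 8 GIMAP values were negative and none passed.

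Another GTPase family was set beside the GIMAP genes. Of 18 interferon-inducible GTPase genes, 3 rose and 1 fell in ACT against N, where 4.15% and 1.43% of all genes did. The median was 0.37 over the list and 0.02 over all genes. The genes called were Gbp6 (0.87), Gbp3 (1.24), Mx1 (1.66) and Tgtp1 (-1.05). In ACT_IL21 against N Mx1 rose (2.41) and Tgtp1 and Tgtp2 fell (-2.15 and -0.92, median of the list -0.10). Against ACT Tgtp1, Gbp7 and Gbp6 fell (-1.10, -1.11 and -0.97, median -0.46). Tgtp1 and Tgtp2 are near-identical copies and uncertain as such. Of these calls, that of Tgtp1 in ACT_IL21 against N held whichever of the 6 libraries was left out, and each of the others ended without N replicate 2, among other libraries (adjusted p up to 0.309 over the libraries left out).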

How the data were processed

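The deposited values are TPM per gene in 6 libraries of 3 pools. RNeasy kits were used for extraction and the Ovation kit for amplification of polyadenylated RNA, per the labels' protocols. The submitters' processing notes name Trimmomatic, Bowtie, RSEM and GRCm38, with no versions. TPM keeps no depth and has a fixed total, so abundant transcripts lower the values of others.

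Of 38355 entries, 139 with a repeated symbol were summed. The 13311 genes that reached 1 TPM in at least 2 libraries entered limma 3.58.1 (R 4.3.3) as log2(TPM + 1), with two-sided tests. All 6 libraries entered 1 fit with an intensity trend (3 residual and 4.841 prior degrees of freedom). With 1 library left out fewer residual degrees of freedom remain, so a call can end though its log2 fold change stays. Benjamini-Hochberg adjustment ran over all genes tested, and calls needed an adjusted p under 0.05. Fold changes on this scale understate low genes. No label ties the 2 libraries of a pool to different mice, so p-values measure the spread between libraries, which may be technical.

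The members, lists, motifs and tests were chosen with earlier results of these data known. Named were all members, up to 4 genes per list with the smallest p or, where none passed, also the most abundant one, the 5 genes most like the members, and the flanking genes. Some genes that the rule names are counted but not printed, and 1 of the gene lists is not reported here. Coordinates are from GENCODE, start-site sequences from RefSeq (all 8 members matched), and coding sequences were aligned with Biopython 1.88. The 17 alternatives changed the pseudocount, filter, scaling, spread model, libraries in the fit, replicate block and the treatment of Gimap3 and Gimap5.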

Additional observations from a re-analysis of the deposited data

How the results depend on the processing

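Over 17 alternatives, Gimap7 in ACT against N passed in each (log2 fold change 1.41 to 1.61), Gimap7 in ACT_IL21 against N passed in 12 (0.73 to 0.98) and Gimap4 in ACT against N in 9 (0.71 to 1.05). No member was called lower under any of them. With no filter on low values, with only the 2 pools compared or with no intensity trend, 1 member was higher in ACT than in N, against 1 to 2 with 1 library left out. With no intensity trend 0 were higher in ACT_IL21 than in N, against 0 to 1 with 1 library left out. The cause was not tested. Without ACT replicate 2 the 2 members were Gimap5 and Gimap7.

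Values near 0 turned sign. With Gimap3 and Gimap5 summed, the value was 0.07 in ACT against N, 0.11 in ACT_IL21 against N and 0.04 in ACT_IL21 against ACT. Gimap8 in ACT against N was -0.03 with quantile normalization. Gimap1 in ACT_IL21 against N was -0.08 with quantile normalization, -0.04 when rescaled without ribosomal and receptor genes and -0.07 with median ratio scaling. Quantile normalization moved the median of all genes by -0.15 in that comparison. With 1 library left out, Gimap3 ranged from -0.77 to 0.26 in ACT against N, from -0.51 to 0.21 in ACT_IL21 against N and from -0.41 to 0.62 in ACT_IL21 against ACT. Gimap1 ranged from -0.17 to 0.22 in ACT_IL21 against N. In ACT_IL21 against ACT, Gimap5 ranged from -0.29 to 0.22, Gimap9 from -0.37 to 0.06, and Map1lc3b from -0.06 to 0.23.

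Over all genes, ACT against N had 341 higher with no filter, and 313 higher and 104 lower with only the 2 pools, with ranges of 216 to 470 higher and 44 to 208 lower with 1 library left out. ACT_IL21 against N had 321 higher and 89 lower with no filter and 105 lower with no intensity trend, with ranges of 136 to 680 and 31 to 223. ACT_IL21 against ACT had 43 higher and 81 lower with no filter, 26 and 66 with only the 2 pools and 59 higher with no intensity trend, with ranges of 1 to 100 and 31 to 102.

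Libraries with the same number share only that number: their deviations from the pool means correlated at 0.21 (N and ACT), -0.004 (N and ACT_IL21) and 0.001 (ACT and ACT_IL21). With a replicate block the counts of members called were the same, 2 higher in ACT and 1 in ACT_IL21 against N, and over all genes 578 higher and 206 lower in ACT against N. Depth is unknown, so no detection floor is given.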
